A study of Mus musculus with 6 samples.

Results

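The genes described here encode the heat shock, J domain and endoplasmic reticulum (ER) folding chaperones of mouse pancreatic fibroblasts. They are the 79 of 14831 genes in the table of raw counts whose symbol begins with Hspa, Hspb, Hspd, Hspe or Hsph, with Dnaja, Dnajb or Dnajc and a number, or with Pdia or Sdf2, together with Calr, Canx, Hyou1, Xbp1, Atf6, Ern1, Edem1, Herpud1, Sel1l, Manf and Creld2. By the place where their proteins act, 30 belong to the ER, 38 to the cytosol and nucleus and 9 to mitochondria. The other 2 are Dnajc4, which was given no compartment, and Hspd1-ps3, a processed pseudogene that the spelling takes in. The genes of the HSP90 family are spelled differently, so they are no members and are given beside their relatives.

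RNAseq was run on immortalized pancreatic fibroblasts of a strain labelled Mixed, in 3 WT-labelled libraries and 3 KO-labelled libraries, the latter with the genotype label Gli2-/-;Gli3-/-. Each library came from a well of its own, grown to confluence in DMEM with calf serum. The study's methods describe lines from adult floxed mice that were infected after immortalization, controls with Ad5 CMV-eGFP and Lenti dsRed and knockouts with Ad5 CMV-eGFP and Ad5 CMV-Cre, and then sorted. Both groups thus went through immortalization, viral infection and sorting, and the number of lines behind each group is not given in the sources used here. The comparison asks which genes differ between libraries labelled as lacking Gli2 and Gli3, transcription factors of the Hedgehog (HH) pathway, and those labelled WT. P-values measure the spread between wells, which may be technical.

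Chaperones of the HSP70 family bind unfolded protein in cycles of ATP hydrolysis. J domain proteins bring them their clients and start hydrolysis, and nucleotide exchange factors such as the HSP110 proteins release the client again. In the ER the HSP70 is BiP (Hspa5), glycoproteins are folded by the lectin chaperones calnexin and calreticulin, and protein disulfide isomerases (PDIs) form disulfide bonds. When unfolded protein builds up there, the sensors IRE1 (Ern1), ATF6 and PERK start the unfolded protein response (UPR), which raises chaperones and ER-associated degradation (ERAD). Fibroblasts secrete collagen in bulk and pass it through this machinery. In the cytosol, heat shock factors do the same for the heat shock proteins.

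Promoters of genes in these circuits are known for short motifs. RefSeq promoters (GRCm38.p6, 250 bases before the gene's start, both strands searched) were held for 65 of the 79 members, and a gene was counted where any of its listed starts had the motif. RefSeq starts can differ from those of GENCODE, whose longest extent is printed for genes below, so that the elements of Hspa5, Dnajb6 and Hspd1 lie before a RefSeq start but within the GENCODE extent. The ER stress element, CCAAT and CCACG with any 9 bases between them, was present in 35 of 27025 genes (0.13%), and in 6 of 25 ER members, 0 of 33 cytosolic or nuclear members and 0 of 6 mitochondrial members. Its parts are common by themselves, with CCACG in 8368 and CCAAT in 10133 of these genes. The 6 stretches are shown because this motif is the one that ATF6 is known to read. Capitals mark CCAAT and CCACG, each 5′ to 3′ on the strand that reads CCAAT first.
Hspa5 (chr2:34772020-34772048, + strand): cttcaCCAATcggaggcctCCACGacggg
Dnajc3 (chr14:118937822-118937850, + strand): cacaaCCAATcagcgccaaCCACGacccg
Pdia6 (chr12:17266486-17266514, + strand): agagaCCAATgaaaggcggCCACGgcgtg
Canx (chr11:50325795-50325823, - strand): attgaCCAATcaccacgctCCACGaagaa
Calr (chr8:84847070-84847098, + strand): atgggCCAATgagggtcgaCCACGcgttg
Creld2 (chr15:88819515-88819543, - strand): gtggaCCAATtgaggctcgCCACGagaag

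The heat shock element was searched as 3 or more units in turn, GAA and its complement TTC, each 2 bases from the next. It was present in 139 genes (0.514%), with 0 of 25 ER members, 1 of 33 cytosolic or nuclear members and 2 of 6 mitochondrial members. Hspd1 and Hspe1, the 2 parts of the mitochondrial chaperonin, lie head to head on chromosome 1 and share a single run of 4 units. A shorter form, GAA and TTC with 2 bases between them, which every longer element also holds, was in 7.73% of all genes with a promoter, in 8 of the 33 cytosolic or nuclear members and in 0 of the 25 ER members. The elements are shown, with units in capitals, for comparison with the ER stress elements above.
Dnajb6 (chr5:29735847-29735869, + strand): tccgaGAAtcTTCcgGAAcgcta
Hspe1 (chr1:55088054-55088081, + strand): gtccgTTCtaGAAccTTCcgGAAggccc
Hspd1 (chr1:55088054-55088081, - strand): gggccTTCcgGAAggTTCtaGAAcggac
A match is a stretch of letters, and binding of a factor was not measured.

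Libraries held 31728420 to 33905521 counts in the WT-labelled group and 32781730 to 41035931 in the KO-labelled group, so that 3 counts are 0.072 to 0.0957 CPM (counts scaled to a library's TMM-adjusted total). The targeted genes went against the labels. Gli2 had 25.8, 28.2 and 27.2 CPM in WT-labelled libraries and 54.6, 55.6 and 58.3 in KO-labelled ones, and Gli3 had 12.5, 12.4 and 12.5 CPM against 40.5, 39.3 and 42.5. These counts cover the whole gene, and whether the reads come from undeleted exons is not known. Whether the labels fit the libraries was not tested. Every direction below is therefore that of KO-labelled libraries relative to WT-labelled libraries, and would reverse if the labels were exchanged. Of 12 fibroblast markers 10 were listed, with Col1a1 at 15334 to 16972 CPM in every library. In KO-labelled libraries, 6 of the 9 that were tested were lower and 1 higher at an adjusted p under 0.05. Among all genes tested, 28.8% were lower and 29.9% higher. The largest falls of the 6 were those of Dcn (log2 fold change -1.55), Col3a1 (-0.94) and Pdgfra (-0.9), and S100a4 rose (1.67). The summed level of the 10 was 57400 to 58135 CPM in WT-labelled libraries and 47298 to 49658 in KO-labelled ones. Of 12 epithelial and acinar markers 5 were listed and 4 tested, of which 3 were higher and 1 lower, with a summed level of 20.2 to 22.7 CPM in WT-labelled libraries and 44.0 to 45.5 in KO-labelled ones. Krt7 (log2 fold change 2.4), Cdh1 (1.08, SE 0.275) and Cela1 (0.87) rose, and Sox9 fell (-0.5). Krt8, listed but not tested, had 0.0, 0.0319 and 0.0627 CPM in WT-labelled libraries and 0.198 to 0.364 in KO-labelled ones, the former under the level of 3 counts. Of 11 immune and 6 endothelial markers 3 and 1 were listed, with Csf1r, Cd68 and Vwf at 0.763 to 1.73 CPM and Cd14 at 13.3 to 16.1 CPM. The part of any other cell type in the results was not tested, and in bulk libraries fewer cells of a type and less RNA per cell cannot be told apart.

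All 79 members passed the expression filter. At an adjusted p under 0.05 (edgeR's quasi-likelihood test, Benjamini-Hochberg adjustment over 14289 genes), 26 members lay higher and 27 lower in KO-labelled libraries, and 26 did not pass the test. Of all genes tested, 58.7% passed, 29.9% higher and 28.8% lower, so a call by itself was common in these libraries. The members' changes were small. Of the 53 members past the test, 49 changed by less than 1.5-fold and 31 by less than 1.2-fold. With a 1.5-fold limit added, 3 members were higher and 1 lower, where 17.7% of all genes passed both limits (11.6% higher and 6.1% lower). The median absolute log2 fold change was 0.17 over the members and 0.22 over all genes tested. The groups did not overlap for 57 members, 27 with KO-labelled libraries above and 30 below, beside 64.2% of all genes tested (32.9% above and 31.3% below). Together the members held 0.962 to 1.01% of the counts of each library.

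The balance of higher and lower calls depended on how libraries were scaled. With upper-quartile scaling, which raised the median log2 fold change of all genes by 0.06, 34 members were higher and 15 lower, and with total counts alone 28 were higher and 21 lower. Among ER members the split was 11 higher to 7 lower as tested here, 17 to 4 with upper-quartile scaling and 12 to 4 with total counts. For the cytosolic and nuclear members it was 14 to 12, 16 to 8 and 15 to 11, and for the mitochondrial members 1 to 7, 1 to 3 and 1 to 6. Total counts alone raised the median of all genes by 0.04. The shares of all genes called under these 2 scalings are not given here. Whether the members' splits moved more than those of all genes was therefore not tested.

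**Figure D1:**
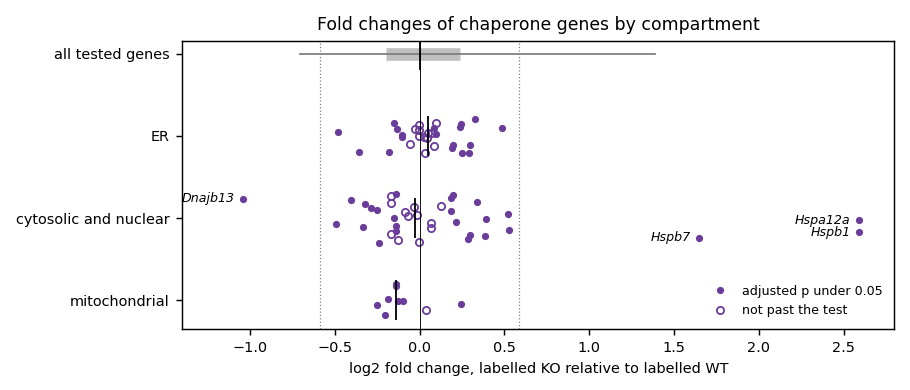
Log2 fold change (x axis) of each ER, cytosolic or nuclear, and mitochondrial chaperone gene in the 3 KO-labelled libraries relative to the 3 WT-labelled ones, with filled points for an adjusted p under 0.05, black ticks at the median of each compartment, and dotted lines at 1.5-fold. For all 14289 tested genes the grey box spans the quartiles (-0.20 to 0.24) and the line the 5th to 95th percentile. ER members stay between -0.48 and 0.48, and Hspb1, Hspa12a, Hspb7 and Dnajb13 of the cytosol lie past the dotted lines.

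No ER member passed the 1.5-fold limit in either direction, and the 30 ER members ranged from -0.48 (Dnajc18) to 0.48 (Herpud1) on the log2 fold change scale, with a median of 0.05 beside 0.002 over all genes tested. Of these, 11 were higher, 7 lower and 12 not past the test. This is 60.0% past the test, beside 58.7% of all genes tested, of which 17.7% also passed the 1.5-fold limit. The most abundant by length did not pass the test. Calr, the lectin chaperone calreticulin, had 368 CPM per kilobase of exon over the 6 libraries, Pdia3, the disulfide isomerase that works with it, 255 and Canx, the membrane lectin calnexin, 147. Calr was at 1075, 1048 and 1024 CPM in WT-labelled libraries and 1091, 1066 and 1060 in KO-labelled ones, with a log2 fold change of 0.03 and a 95% interval from -0.03 to 0.09. Pdia3 was at 791, 803 and 787 CPM and then 818, 816 and 792 (log2 fold change 0.03, interval -0.03 to 0.09). Canx was at 719, 699 and 696 CPM against 687, 672 and 673, a log2 fold change of -0.06 with an interval from -0.12 to 0.00. For Canx alone of these genes the groups did not overlap.

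BiP itself did not pass the test. Hspa5 (chromosome 2 from 34771970 to 34777547, GENCODE M21 on GRCm38) was at 612, 577 and 563 CPM in WT-labelled libraries and 616, 597 and 595 in KO-labelled ones. The groups overlapped, and the log2 fold change was 0.05 with a 95% interval from -0.03 to 0.12 (adjusted p = 0.275). It passed with upper-quartile scaling (0.10, adjusted p = 0.0244) and without WT-labelled replicate 1 (0.08, adjusted p = 0.0439).

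Partners of BiP moved in opposite directions. Hyou1 (GRP170), a large relative of HSP70 that acts as nucleotide exchange factor for BiP, had 158, 137 and 140 CPM in WT-labelled libraries and 186, 180 and 179 in KO-labelled ones. Every KO-labelled library was above every WT-labelled library, a log2 fold change of 0.33 (SE 0.047, adjusted p = 5.96e-05). Manf, a small secreted and ER-resident protein that binds BiP, rose from 85.5, 79.3 and 75.4 CPM to 97.5, 101 and 96.3 (log2 fold change 0.30, SE 0.044, adjusted p = 7.61e-05). Dnajc3 (p58IPK), a J protein of the ER lumen, rose from 152, 149 and 151 CPM to 172, 170 and 173 (0.19, SE 0.028, adjusted p = 9.11e-05). The groups did not overlap in any of the 3 genes, though for Hyou1 the spread of the WT-labelled libraries was as wide as the gap between the groups.

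Among the other J proteins of the BiP system, Dnajb11, Dnajc1 and Dnajc10 fell. Dnajb11 (ERdj3), a soluble J protein that hands clients to BiP, had 130, 123 and 126 CPM in WT-labelled libraries and 102, 99.6 and 95.2 in KO-labelled ones. Among the 13 members of the BiP system it showed the largest fall, with a log2 fold change of -0.36 (SE 0.035, adjusted p = 2.49e-06), under all scalings tried. Dnajc1 (ERdj1), which sits at the translocon, fell from 140, 142 and 141 CPM to 128, 121 and 125 (log2 fold change -0.18, adjusted p = 3.17e-04). Dnajc10 (ERdj5), a disulfide reductase with a J domain, fell from 230, 235 and 234 CPM to 216, 212 and 211 (-0.13, adjusted p = 0.00145). Sdf2, which forms a complex with ERdj3, was at 106 CPM in each WT-labelled library and 100, 101 and 94.8 in KO-labelled ones (-0.10, adjusted p = 0.0176). This call was lost in 4 alternative settings, and 16.0% of its exon bases overlap Supt6. Its relative Sdf2l1 was at 18.2, 16.7 and 16.0 CPM against 17.8, 15.8 and 17.4, overlapping throughout.

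The remaining BiP partners were not past the test. Dnajb9 (ERdj4), a J protein known as a UPR target, had 19.3, 19.0 and 18.4 CPM in WT-labelled libraries and 19.6, 19.7 and 21.3 in KO-labelled ones. These groups did not overlap, yet the log2 fold change of 0.09 had an interval from -0.02 to 0.21. Creld2, an ER stress-inducible protein with isomerase activity, was at 51.5, 46.0 and 47.7 CPM against 48.8, 49.7 and 46.0. Hspa13 and Dnajc25 had log2 fold changes of 0.05 and 0.07, with intervals that include 0. In all, 3 of the 13 genes of the BiP system were higher, 4 lower and 6 not past the test. Thus 53.8% passed, beside 58.7% of all genes tested. The summed level of the 13 genes was 1694 to 1778 CPM in WT-labelled libraries and 1731 to 1785 in KO-labelled ones.

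**Figure D2:**
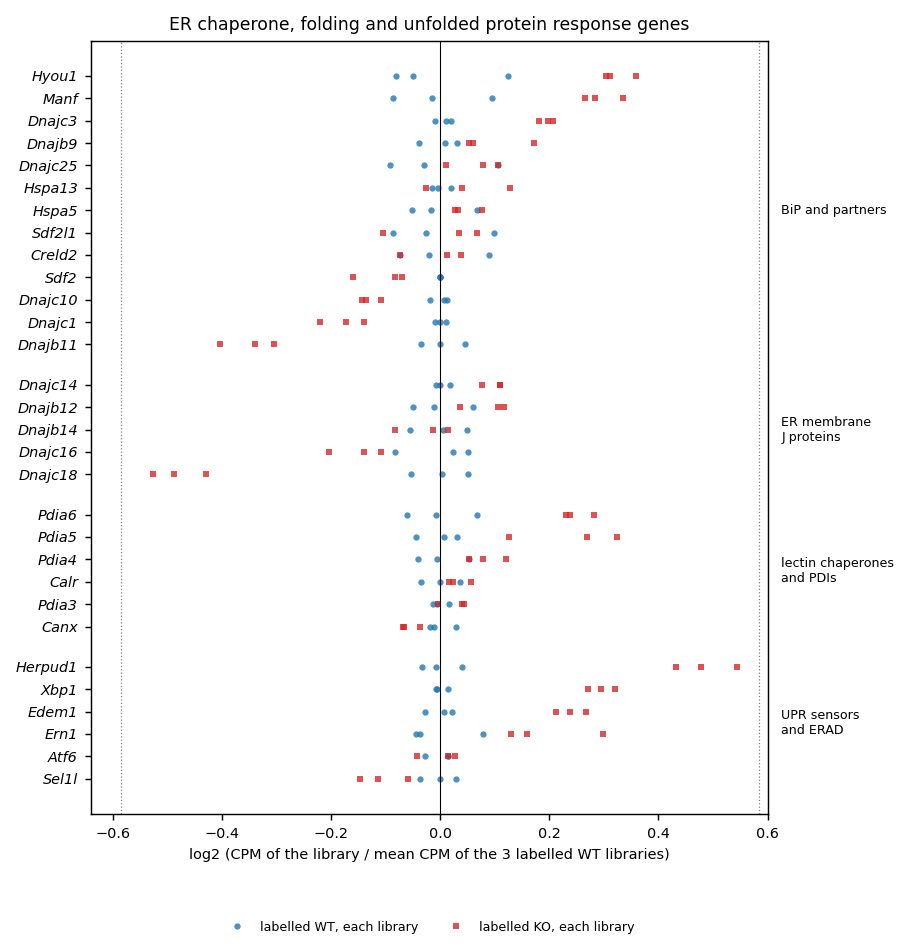
The 30 ER members by role, with the log2 ratio of each library's CPM to the mean of the 3 WT-labelled libraries (x axis), blue circles for WT-labelled libraries and red squares for KO-labelled ones, and dotted lines at 1.5-fold. Herpud1, Hyou1, Manf and Xbp1 stand to the right of their circles, Dnajb11 and Dnajc18 to the left, and Hspa5, Calr and Pdia3 overlap them.

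Most genes of UPR signalling and ERAD in the list rose: 4 of 6 were higher, 1 lower and 1 not past the test, with a median log2 fold change of 0.22 (all genes tested: 0.002). Of all genes tested, 29.9% were higher and 28.8% lower. None of the 6 passed the 1.5-fold limit. Herpud1, an ER membrane protein of the degradation complex and a known UPR target (chromosome 8 from 94386438 to 94395377), had 95.2, 92.1 and 90.5 CPM in WT-labelled libraries and 135, 129 and 125 in KO-labelled ones. The gap between the groups was several times the spread within them, with a log2 fold change of 0.48 (SE 0.037, adjusted p = 2.11e-07), the largest rise of the 30 ER members. Xbp1, the transcription factor whose mRNA IRE1 splices, rose from 94.6, 93.2 and 93.3 CPM to 117, 115 and 113 (0.29, SE 0.030, adjusted p = 3.66e-06). Gene counts do not separate its spliced and unspliced forms. Edem1, which marks misfolded glycoproteins for degradation, rose from 80.3, 77.6 and 79.5 CPM to 93.3, 91.6 and 95.2 (0.24, adjusted p = 3.65e-05).

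Of the sensors in the list, Ern1 passed the test and Atf6 did not. Ern1 (IRE1) had 41.5, 38.3 and 38.1 CPM in WT-labelled libraries and 43.0, 43.9 and 48.3 in KO-labelled ones, with no overlap but a narrow gap (log2 fold change 0.20, SE 0.052, adjusted p = 0.00567). Atf6 was at 105, 105 and 102 CPM and 101, 106 and 105 CPM, a log2 fold change with an interval from -0.07 to 0.07. Sel1l, the scaffold of the main ERAD ubiquitin ligase, fell from 196, 191 and 200 CPM to 177, 181 and 188 (-0.11, adjusted p = 0.0145), a call that was lost in 5 alternative settings.

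Of the lectin chaperones and PDIs, 3 of 6 rose and none of the 6 fell, beside 29.9% and 28.8% of all genes tested. Pdia6, an isomerase that also acts on IRE1, rose from 199, 189 and 182 CPM to 231, 224 and 223 (log2 fold change 0.25, SE 0.035, adjusted p = 5.8e-05). Pdia5 rose from 23.5, 22.3 and 23.1 CPM to 28.8, 27.7 and 25.1 (0.24, SE 0.056, adjusted p = 0.00229). Pdia4 was at 225, 211 and 216 CPM against 236, 229 and 225, groups that touch, and its call (0.08, adjusted p = 0.0472) was lost in 8 alternative settings. The summed level of the 6 genes was 2928 to 3032 CPM in WT-labelled libraries and 2998 to 3092 in KO-labelled ones.

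A further 5 ER members are J proteins of the ER membrane, of which 1 rose, 2 fell and 2 did not pass the test. Thus 60.0% passed, beside 58.7% of all genes tested. Dnajc18, whose J domain is thought to face the cytosol, had 57.6, 59.9 and 61.9 CPM in WT-labelled libraries and 41.5, 42.6 and 44.4 in KO-labelled ones. It was the ER member with the largest fall, a log2 fold change of -0.48 (SE 0.041, adjusted p = 5.33e-07). Dnajc16 fell from 23.5, 25.8 and 25.3 CPM to 23.1, 21.6 and 22.6 (-0.15, adjusted p = 0.0230), lost in 7 alternative settings. Dnajc14, which helps receptors leave the ER, rose from 166, 163 and 164 CPM to 173, 177 and 177 (0.10, adjusted p = 0.0111). The call was lost without WT-labelled replicate 2 (adjusted p = 0.0556) and without KO-labelled replicate 2 (0.0536), and 17.0% of its exon bases overlap Ormdl2. Dnajb12 and Dnajb14, relatives of Dnajc18, had log2 fold changes of 0.09 and -0.03 and did not pass the test.

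The 6 ER members with an ER stress element did not move as 1 group. Dnajc3 and Pdia6 rose, and Hspa5, Calr, Canx and Creld2 did not pass the test, a median log2 fold change of 0.04. Of the 19 other ER members with a promoter sequence, 7 were higher, 6 lower and 6 not past the test, with a median of 0.07. Among all genes tested, 29.9% were higher and 28.8% lower.

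The cytosolic and nuclear members held the 4 changes past 1.5-fold, 10.5% of them beside 17.7% of all genes tested. Of the 38, 14 were higher, 12 lower and 12 not past the test, so that 68.4% passed beside 58.7% of all genes tested. The median log2 fold change was -0.02, which turns to 0.03 with upper-quartile scaling and to 0.01 with total counts. Hspa8 (HSC70), the constitutive HSP70 of the cytosol, was the most abundant per length at 284 CPM per kilobase, followed by the J protein Dnaja2 at 61.4 and the HSP110 relative Hspa4 at 48.8. Hspa8 had 1250, 1336 and 1250 CPM in WT-labelled libraries and 1173, 1178 and 1138 in KO-labelled ones. All KO-labelled libraries were below, with a log2 fold change of -0.14 (SE 0.032, adjusted p = 0.00287), a call lost with upper-quartile scaling (-0.08, adjusted p = 0.0550). Of its 31-base stretches 44.8% also occur in other genes, most of all in the processed copy Gm15459. That copy was itself listed at 462 to 482 CPM and 429 to 434 CPM, and the sum of both genes gave a log2 fold change of -0.13.

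The heat-inducible HSP70 genes were low and lay just below in KO-labelled libraries. Hspa1b (chromosome 17 from 34956436 to 34959238) had 24.0, 22.2 and 22.7 CPM in WT-labelled libraries and 21.3, 20.5 and 20.8 in KO-labelled ones (log2 fold change -0.14, adjusted p = 0.0267). Hspa1a beside it (34969190 to 34972156) had 1.98, 1.40 and 2.10 CPM against 1.36, 1.22 and 1.30 (-0.50, SE 0.182, adjusted p = 0.0326). Of the 31-base stretches of Hspa1a 70.1% occur in other genes, most of all in Hspa1b, so the split between these copies is uncertain. Their summed counts gave -0.16 (adjusted p = 0.0129). Called singly, Hspa1a lost its call in 8 and Hspa1b in 6 alternative settings.

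Among the other HSP70 and HSP110 genes, both directions occurred. Hsph1 (HSP105), an exchange factor for cytosolic HSP70, fell from 144, 136 and 139 CPM to 116, 120 and 119 (log2 fold change -0.24, SE 0.032, adjusted p = 3.63e-05). Hspa2, an HSP70 best known from the testis, fell from 34.4, 32.5 and 35.8 CPM to 27.6, 28.0 and 25.7 (-0.34, adjusted p = 8.31e-05). Hspa4l, a paralog of Hsph1, rose from 37.7, 32.8 and 33.9 CPM to 49.5, 49.1 and 52.2 (0.53, SE 0.051, adjusted p = 1.86e-06), the nearest below the 1.5-fold limit. Hspa4 was at 268, 263 and 260 CPM against 280, 277 and 272, which did not overlap (0.07, interval 0.00 to 0.13) but passed only in some alternatives. So 3 HSP110 relatives of the cytosol, which do the same work, lay below, above and close to their level in WT-labelled libraries.

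Hspa12a, a distant HSP70 relative (chromosome 19 from 58795750 to 58943654), showed a large rise from a low level. It had 1.15, 0.478 and 0.971 CPM in WT-labelled libraries (36, 16 and 31 counts) and 4.94, 4.99 and 5.66 CPM in KO-labelled ones (175, 208 and 187 counts). Its second WT-labelled library was well below the other two, and all were far below KO-labelled libraries, with a fold of 6.02 (log2 fold change 2.59, SE 0.196, adjusted p = 1.85e-07). The paralog Hspa12b rose from 33.1, 32.1 and 29.5 CPM to 34.2, 36.2 and 39.5 (0.22, adjusted p = 0.00672), a call lost with limma on the deposited values. In all, 3 of the 11 HSP70 and HSP110 genes were higher, 5 lower and 3 not past the test. Thus 72.7% passed, beside 58.7% of all genes tested.

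The small heat shock proteins, ATP-independent holdases, held the other rises past the limit. Hspb1 (HSP25, the mouse HSP27), an abundant small heat shock protein of many cells that also binds actin (chromosome 5 from 135887919 to 135889563), had 5.23, 5.02 and 3.92 CPM in WT-labelled libraries. It had 27.6, 29.2 and 28.7 CPM in KO-labelled ones, a fold of 6.04 (log2 fold change 2.59, SE 0.082, adjusted p = 4.33e-11). The replicates of each group lay within a narrow band, far from the other group. Of its 31-base stretches 55.4% occur in other genes, most of all in the pseudogene Hsp25-ps1, so part of its reads may not be assigned to it. Hspb7, known from heart and muscle, was near the limit of detection, with 6, 6 and 4 counts in WT-labelled libraries and 20, 22 and 16 in KO-labelled ones (log2 fold change 1.65, SE 0.322, adjusted p = 7.09e-04).

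Smaller rises were seen in 3 further small heat shock proteins. Hspb6 (HSP20), known from smooth muscle, rose from 11.8, 11.3 and 10.0 CPM to 14.3, 14.8 and 14.3 (log2 fold change 0.39, adjusted p = 3.6e-04). Hspb8, which works with Bag3 in selective autophagy, rose from 20.0, 19.0 and 21.6 CPM to 25.3, 23.7 and 24.8 (0.28, adjusted p = 7.61e-04). Hspb2 rose from 12.9, 13.2 and 11.3 CPM to 15.5, 14.9 and 15.8 (0.30, adjusted p = 0.00209). For Hspb2 30.2% of the exon bases overlap Cryab on the opposite strand, and Cryab, the small heat shock protein alpha B-crystallin, which is no member by its spelling, rose from 181, 188 and 186 CPM to 258, 261 and 257 (0.48). Whether counting used strand is not given in the sources used here, so reads in the overlap of this pair cannot be told apart.

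The other 2 names in the group do not stand for holdases and did not pass the test. Hspb11 (IFT25) is a subunit of intraflagellar transport, and Hspbap1 binds HSPB1. Of the 7 genes 5 rose, beside 29.9% of all genes tested. The summed level of the whole group was 66.3 to 68.9 CPM in WT-labelled libraries and 99.8 to 102 in KO-labelled ones. Hspb1 made up most of the difference, and the count of 5 stood under all scalings tried.

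**Figure D3:**
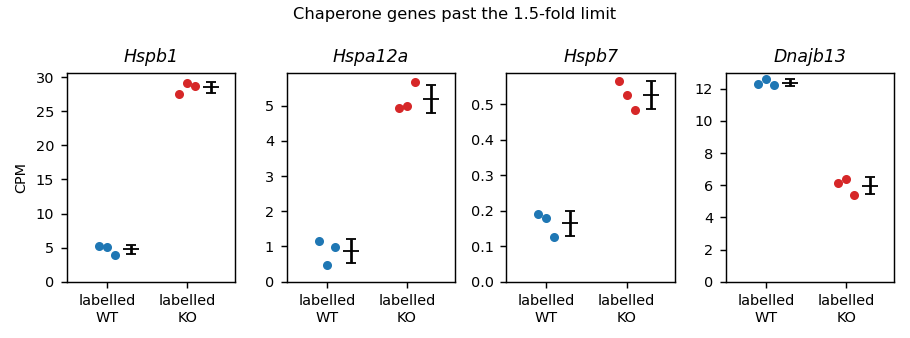
CPM (y axis, from 0, a scale of its own for each gene) of the 4 chaperone genes past the 1.5-fold limit, with a point for each library and, beside them, the mean and SD of the 3 libraries. Hspb1 goes from a mean of 4.72 to 28.5 CPM, Hspa12a and Hspb7 rise from low levels, and Dnajb13 falls from 12.3 to 5.96 CPM, with no overlap between groups in any of them.

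J proteins of classes A and B were split, 3 of 9 higher, 4 lower and 2 not past the test. Thus 77.8% passed, beside 58.7% of all genes tested. Dnajb13, a J protein of the radial spokes in motile cilia and sperm tails (chromosome 7 from 100501716 to 100514960), had 12.3, 12.6 and 12.2 CPM in WT-labelled libraries and 6.13, 6.38 and 5.36 in KO-labelled ones. It fell by 1.04 on the log2 scale (SE 0.078, adjusted p = 1.76e-07), past the 1.5-fold limit, and 11.2% of its exon bases overlap Ucp2 on the opposite strand. Dnajb2, a J protein with ubiquitin-binding motifs, fell from 96.6, 90.5 and 91.5 CPM to 71.1, 68.7 and 70.6 (-0.41, SE 0.036, adjusted p = 7.44e-07). Dnajb6, known to hold back protein aggregates, fell from 127, 131 and 136 CPM to 108, 102 and 106 (-0.32, SE 0.036, adjusted p = 7.73e-06).

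The J proteins that bring clients to HSC70 differed in direction as well. Dnaja1 fell from 130, 126 and 134 CPM to 121, 118 and 115 (log2 fold change -0.14, adjusted p = 0.00307), a call lost with upper-quartile scaling. Its paralog Dnaja2 rose from 165, 174 and 172 CPM to 191, 202 and 193 (0.20, adjusted p = 2.62e-04). Dnajb1 (HSP40), the classical heat-inducible J protein, rose from 51.3, 50.8 and 50.7 CPM to 57.9, 58.3 and 57.2 (0.18, adjusted p = 4.26e-04). Its relative Dnajb4 rose from 49.9, 50.4 and 52.3 CPM to 63.1, 64.6 and 65.2 (0.34, SE 0.035, adjusted p = 3.7e-06). Dnajb1 thus lay higher while Hspa1a and Hspa1b, which are induced with it on heating, lay lower, all without overlap between the groups.

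Class C J proteins take part in separate processes, and of the 11 in the cytosol and nucleus 3 were higher, 3 lower and 5 not past the test. Thus 54.5% passed, beside 58.7% of all genes tested. Dnajc27, a small GTPase with a J domain, rose from 6.99, 7.23 and 8.49 CPM to 11.1, 10.7 and 10.8 (log2 fold change 0.52, SE 0.081, adjusted p = 1.27e-04). Dnajc9, a chaperone of histones, rose from 28.7, 26.9 and 25.4 CPM to 36.8, 36.9 and 32.1 (0.39, adjusted p = 1.38e-04). Dnajc21, a factor of ribosome assembly, rose from 20.8, 21.7 and 22.8 CPM to 25.6, 25.6 and 23.0 (0.18, adjusted p = 0.0141), a call lost in 4 alternative settings. The 3 that fell are Dnajc2, Dnajc17 and Dnajc8. Dnajc2, a J protein bound to the ribosome, fell from 27.8, 24.6 and 25.4 CPM to 21.7, 22.1 and 21.5 (-0.25, adjusted p = 0.00136). The splicing-related Dnajc17 and Dnajc8 had log2 fold changes of -0.29 (adjusted p = 0.00961) and -0.15 (adjusted p = 0.00222).

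Those not past the test in the cytosol and nucleus were Hspa4, Hspa14, Hspbp1, Hspb11, Hspbap1, Dnaja4, Dnajb5, Dnajc5, Dnajc7, Dnajc12, Dnajc13 and Dnajc24. For Dnaja4 44.1% of the exon bases overlap Wdr61.

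**Figure D4:**
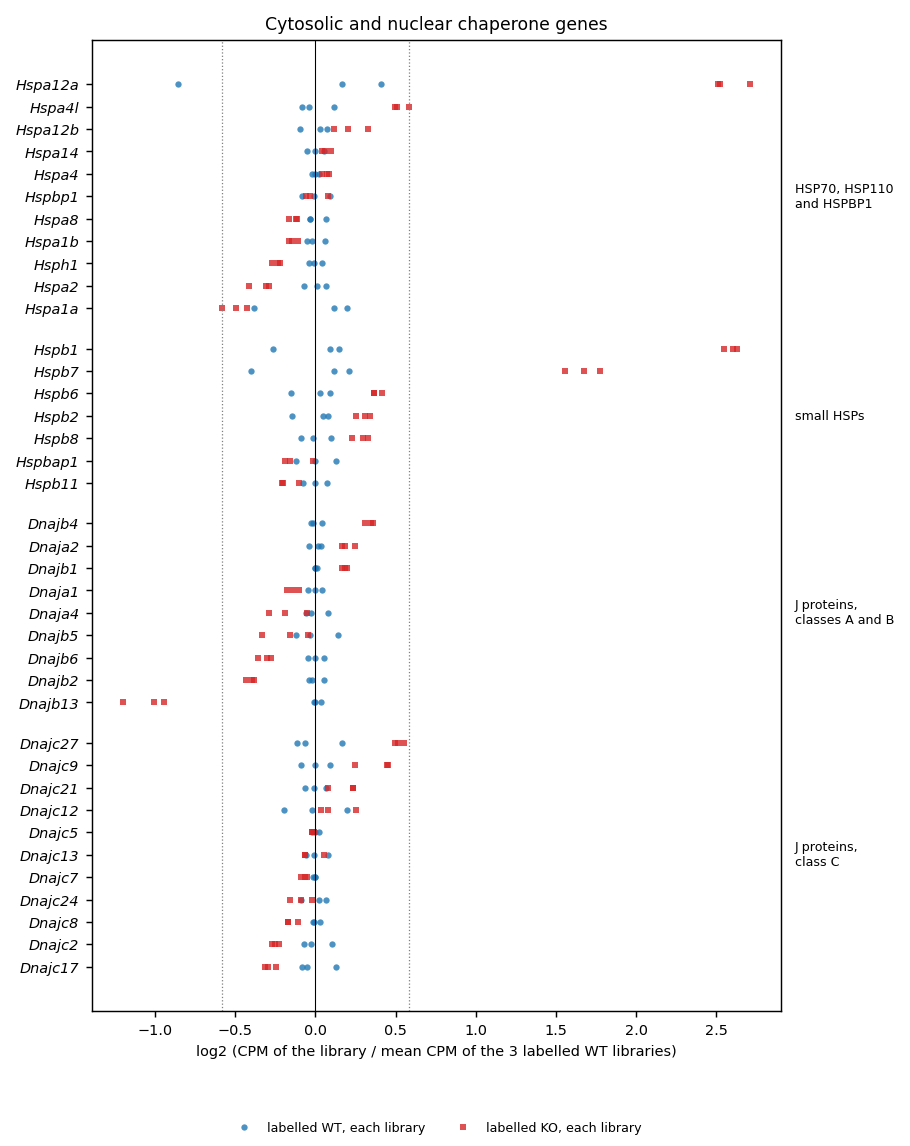
The 38 cytosolic and nuclear members by role, with the log2 ratio of each library's CPM to the mean of the 3 WT-labelled libraries (x axis), blue circles for WT-labelled libraries and red squares for KO-labelled ones, and dotted lines at 1.5-fold. Hspa12a, Hspb1 and Hspb7 lie far to the right and Dnajb13 to the left, and most other genes lie within the dotted lines.

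The mitochondrial members moved mostly 1 way by small amounts: 7 of 9 were lower, 1 higher and 1 not past the test. Of all genes tested, 28.8% were lower and 29.9% higher. The median log2 fold change of these members was -0.14 (all genes tested: 0.002). Their summed level was 950 to 1008 CPM in WT-labelled libraries and 857 to 914 in KO-labelled ones. With upper-quartile scaling, where the median of all genes was 0.06, 7 of 9 had a negative fold change and 3 were called lower. Hspd1 (HSP60), the ring of the chaperonin, had 298, 290 and 284 CPM in WT-labelled libraries and 274, 269 and 254 in KO-labelled ones (-0.13, SE 0.034, adjusted p = 0.00586). Hspe1 (HSP10), its lid, fell from 90.1, 83.0 and 85.5 CPM to 78.1, 79.4 and 69.6 (-0.19, SE 0.049, adjusted p = 0.00594). Hspa9 (mortalin), the HSP70 of the matrix, fell from 481, 454 and 443 CPM to 430, 412 and 407 (-0.14, SE 0.036, adjusted p = 0.00427). In each of the 3 genes every KO-labelled library was below every WT-labelled library. With upper-quartile scaling Hspa9 (-0.08, adjusted p = 0.0652) and Hspd1 (-0.07, adjusted p = 0.0977) lost their calls. Hspe1 lost its call with limma on the deposited values (adjusted p = 0.0569). Of the 31-base stretches of Hspd1 53.1% occur in other genes, most of all in the pseudogene Hspd1-ps3, which was listed at 0.479 to 0.648 CPM.

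The J proteins of mitochondria were less abundant. Dnajc15, of the protein import motor, fell from 15.2, 16.4 and 14.9 CPM to 13.0, 13.2 and 12.9 (log2 fold change -0.25, adjusted p = 0.00307). Dnajc30 (-0.21), Dnajc11 (-0.14) and Dnaja3 (-0.10) were also lower, though Dnaja3 lost its call in 10 and Dnajc11 in 2 alternative settings, and 26.2% of the exon bases of Dnajc30 overlap Bud23. Dnajc28 rose from 7.91, 8.81 and 8.18 CPM to 10.0, 9.69 and 9.85 (0.25, adjusted p = 0.00992). Dnajc4, the member with no compartment, was at 17.4, 18.8 and 17.7 CPM against 15.9, 16.5 and 16.1 (-0.15, adjusted p = 0.0295), lost in 7 alternative settings. The 3 members with a 3-unit heat shock element, Dnajb6, Hspd1 and Hspe1, were all lower, beside 28.8% of all genes tested. Hspd1 and Hspe1 share a single element. Of the 8 cytosolic or nuclear members with the shorter form, 3 were higher, 4 lower and 1 not past the test.

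Relatives in different compartments can be compared within a library, where scaling cancels. The HSP90 family gave opposite directions. Hsp90b1 (GRP94), the HSP90 of the ER, had 1314, 1283 and 1282 CPM in WT-labelled libraries and 1552, 1506 and 1508 in KO-labelled ones (log2 fold change 0.24, SE 0.027, adjusted p = 8.89e-06). Hsp90ab1, the constitutive HSP90 of the cytosol, fell from 2270, 2240 and 2209 CPM to 2014, 1966 and 1936 (-0.18, SE 0.027, adjusted p = 7.61e-05). The mitochondrial Trap1 (-0.16) and the inducible Hsp90aa1 (-0.11) were lower too, the latter not past the test with upper-quartile scaling (-0.05, adjusted p = 0.132).

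The ratio of Hsp90b1 to Hsp90ab1 counts was 0.579, 0.573 and 0.58 in WT-labelled libraries and 0.771, 0.766 and 0.779 in KO-labelled ones, a difference of 0.42 on the log2 scale. That of the exchange factors Hyou1 in the ER and Hsph1 in the cytosol was 1.1, 1.01 and 1.01 against 1.61, 1.5 and 1.5, a log2 difference of 0.57. The HSP70s gave smaller differences. Hspa5 over Hspa8 was 0.49, 0.432 and 0.45 against 0.525, 0.507 and 0.523 (log2 difference 0.18), and Hspa5 over the mitochondrial Hspa9 was 1.27 in each WT-labelled library and 1.43, 1.45 and 1.46 in KO-labelled ones (0.19). The groups did not overlap in any of the 4 pairs, which were chosen after their values were seen. J proteins of the same compartments did not run that way throughout, since Dnajb11 of the ER fell (-0.36) while the cytosolic Dnajb1 (0.18), Dnajb4 (0.34) and Dnaja2 (0.20) rose. An exact two-sided permutation test gave p = 0.1 for each (adjusted over the 4 pairs, 0.1), the smallest that 3 against 3 can give. A ratio shows unequal change and does not say which gene moved.

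**Figure D5:**
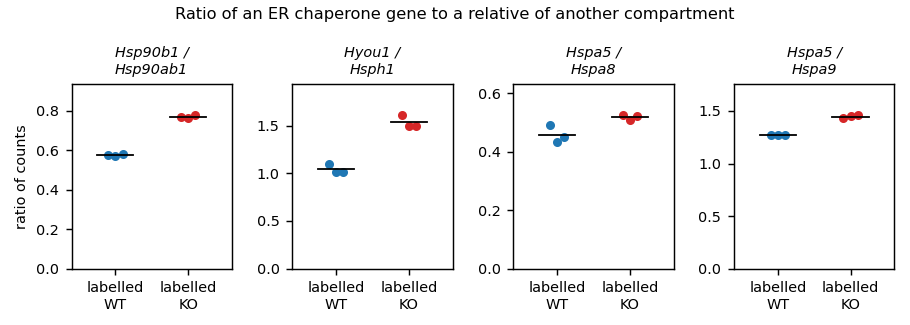
Ratio of counts (y axis, from 0, a scale of its own for each pair) of an ER chaperone gene to a relative in the cytosol (Hsp90ab1, Hsph1, Hspa8) or mitochondria (Hspa9), with a point for each library and a line at the mean. In each of the 4 pairs the 3 KO-labelled libraries lie above the 3 WT-labelled ones, by 0.18 to 0.57 on the log2 scale.

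Further genes of these pathways come from lists that do not overlap the members. Of 38 other genes of ER folding and ERAD 14 were higher, 11 lower and 13 not past the test, with a median log2 fold change of 0.04. Thus 65.8% passed, beside 58.7% of all genes tested. None was past 1.5-fold, where 17.7% of all genes passed both limits. Selenos, an ERAD membrane protein, had 52.7, 53.8 and 50.2 CPM in WT-labelled libraries and 75.3, 72.2 and 71.6 in KO-labelled ones (0.48, SE 0.038, adjusted p = 2.94e-07). P4hb, the classical PDI and a subunit of collagen prolyl hydroxylase, rose from 971, 956 and 938 CPM to 1164, 1113 and 1098 (0.24, SE 0.030, adjusted p = 2.45e-05). Sil1, the other exchange factor of BiP, fell from 68.4, 70.0 and 65.6 CPM to 50.8, 49.7 and 48.2 (-0.46, SE 0.038, adjusted p = 4.87e-07), opposite to Hyou1. Tmx3, a membrane PDI, and Ufd1, of the complex that extracts ERAD clients, had log2 fold changes of -0.41 and -0.35.

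Of 16 other UPR genes 9 were higher, 4 lower and 3 not past the test, where 29.9% of all genes tested were higher and 28.8% lower. Of the 16, 4 were past 1.5-fold, all higher, beside 11.6% of all genes tested. These 4 were Trib3, Chac1, Creb3l2 and Wfs1. Trib3, a pseudokinase induced by the transcription factor ATF4, had 21.2, 14.9 and 14.4 CPM in WT-labelled libraries and 37.6, 33.6 and 34.7 in KO-labelled ones (log2 fold change 1.07, SE 0.108, adjusted p = 2.77e-06). Chac1, a glutathione-degrading enzyme also known as an ATF4 target, rose from 10.2, 8.45 and 7.86 CPM to 18.1, 16.7 and 16.7 (0.96, SE 0.085, adjusted p = 8.23e-07). Creb3l2, an ER membrane-bound transcription factor linked to secretory capacity, rose from 201, 206 and 216 CPM to 334, 324 and 339 (0.68, SE 0.034, adjusted p = 3.71e-09). Atf4 itself rose by a log2 fold change of 0.36 and Eif2ak3 (PERK) by 0.26. Atf6b (-0.36), Ddit4 (-0.34) and Ppp1r15b (-0.30), a subunit of the phosphatase that reverses PERK signalling, fell.

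In the cytosol, 10 of 20 co-chaperones of HSP70 and HSP90 were lower, 4 higher and 6 not past the test, with a median log2 fold change of -0.10. Of all genes tested, 28.8% were lower and 29.9% higher. Fkbp5, an immunophilin of HSP90 that steroid receptors induce, fell from 16.8, 15.1 and 16.1 CPM to 11.4, 11.4 and 9.6 (-0.56, SE 0.076, adjusted p = 3.78e-05). St13 (Hip), which stabilizes HSP70 on its client, fell from 480, 482 and 484 CPM to 408, 396 and 389 (-0.28, adjusted p = 3.25e-06), and the exchange factor Bag5 had a log2 fold change of -0.30. Ppid (0.35), Chordc1 (0.30) and Bag4 (0.29) were higher. Of the 8 subunits of TRiC, the chaperonin of the cytosol, 3 were higher (Cct3, Cct2 and Cct8, by 0.13 to 0.17), 1 lower (Cct6a, -0.13) and 4 not past the test.

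The heat shock factors were 3 of 4 listed. Hsf1, the main regulator of the heat shock genes, had 92.2, 89.9 and 88.0 CPM in WT-labelled libraries and 88.3, 90.9 and 85.9 in KO-labelled ones, which overlap. Hsf2 rose from 25.5, 25.5 and 25.6 CPM to 28.5, 29.3 and 29.4 (log2 fold change 0.19, adjusted p = 0.00206). Hsf4, known from the lens, rose from 0.511, 0.746 and 0.564 CPM to 3.98, 3.91 and 3.33 (2.62, SE 0.174, adjusted p = 5.73e-08).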

How the data were processed

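RNAseq libraries (Poly-A, NEB ultra 2 kit) of 6 wells were grouped by the genotype in their labels, 3 WT and 3 KO. The authors deposited raw counts of reads per gene, together with voom log2 CPM values. The submitters' processing notes name STAR 2.7.2b, featureCounts, limma and GRCm38.p6, and whether counting used strand is not given in the sources used here. Reads shared by near-identical copies and overlapping genes can be split or dropped by such counting.

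Counts were tested here with edgeR 4.0.16 (R 4.3.3, TMM factors, filterByExpr, quasi-likelihood F test) over 14289 genes, with Benjamini-Hochberg adjustment, a threshold of 0.05 and, where stated, 1.5-fold. SEs come from the fold change and its F statistic. CPM were made from TMM-scaled totals. The script was tested on simulated data. The common biological coefficient of variation was 3.74%. Positions, exon overlap and shared 31-base stretches come from GENCODE M21 and its transcripts, to which 79 members matched.

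The members and lists were chosen with earlier results of these data known, and compartments were assigned from general knowledge. Genes named by rule were members past both limits, the 3 most abundant per kilobase in each compartment, a set of well-known members, and up to 3 genes a direction from each other list, of which 1 is not reported here. Named after their values were seen were Dnajc1, Dnajc10, Sdf2, Dnajc14, Dnajc16, Dnajc18, Pdia5, Hspa2, Hspa4l, Hspa12b, Hspb2, Hspb6, Dnajb2, Dnajb4, Dnajb6, Dnajc2, Dnajc8, Dnajc9, Dnajc17, Dnajc21, Dnajc27, Dnajc15, Dnajc30, Dnajc11, Dnaja3, Dnajc28, Dnajc4, Wfs1, Atf4, Eif2ak3, Hsf1 and Cryab. Alternatives were scaling by upper quartile, RLE or totals, stricter and looser filters, a 2-fold limit, DESeq2 1.42.0, limma 3.58.1 on the counts and on the deposited log2 values, summed near-identical copies (Hspa8 with Gm15459 added after seeing the data), and leaving out each library.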

Additional observations from a re-analysis of the deposited data

How the results depend on the processing

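Upper-quartile scaling moved the number of members lower from 27 to 15, the ER median log2 fold change from 0.05 to 0.10, the cytosolic and nuclear median from -0.02 to 0.03 and the mitochondrial median from -0.14 to -0.08. Total counts gave medians of 0.08, 0.01 and -0.11. These settings raised the median of all genes by 0.06 and 0.04. Leaving out 1 library in turn gave an ER median of 0.02 (without labelled KO replicate 1) to 0.06, 22 to 24 members lower, and 1 to 2 lower past 1.5-fold, where Hspa1a joined Dnajb13 without labelled WT replicate 2. Members higher past 1.5-fold went from 3 to 4 with upper-quartile scaling and without labelled WT replicate 1 (Hspa4l, 0.59 in both), and without labelled WT replicate 3 (Dnajc27, 0.61), and to 2 with at least 10 counts in every library. The sign of genes not past the test changed. Atf6 was at 0.06, 0.03 and 0.01 with upper-quartile scaling, total counts and at least 10 counts in every library, Creld2 at 0.05, 0.03 and 0.00, and Sdf2l1 at 0.06, 0.03 and 0.01. Hsf1 was at 0.03 and 0.01 with upper-quartile scaling and total counts. Without 1 library in turn Atf6 lay between -0.02 and 0.01, Creld2 between -0.04 and 0.04, Sdf2l1 between -0.04 and 0.05 and Hspd1-ps3 between -0.05 and 0.16. The 4 members past 1.5-fold kept direction and call in every alternative that tested them, and Hspb7 was not tested with at least 10 counts in every library. The cause of these shifts was not tested. No paired analysis was possible because the labels give the wells no shared replicate numbers. Depth limits Hspb7 and Hspa1a, with 4 to 22 and 43 to 67 counts.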
